A study of Mus musculus with 6 samples.

Results

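The VEGF family comprises the secreted vascular endothelial growth factors and the cell-surface proteins that bind them, and its transcripts were followed here in mammary tumours of MMTV-PyMT mice. The 10 genes were chosen by name, as the gene rows whose symbol was Vegfa, Vegfb, Pgf, Vegfc, Vegfd, Flt1, Kdr, Flt4, Nrp1 or Nrp2, out of 55487 rows. All 10 were found and all 10 were among the 17396 genes that passed a filter on low counts. RNA-seq libraries numbered 6. Mice given DMHCA, a synthetic steroidal agonist of the liver X receptors (LXR), by mouth in Medigel cups without a break since they were 6 weeks old supplied 3 tumours, and vehicle-treated mice (titled Ctl), dosed by the same route, supplied the other 3. All 6 tumours arose from the PyMT transgene, a viral oncogene placed under a promoter of mouse mammary tumour virus that is active mainly in mammary epithelium. Strain background, sex, age at collection and tumour stage are not in the labels. The study set out to learn how LXR activation affects progression of these tumours.

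VEGF-A, the main driver of blood vessel growth, binds the receptor tyrosine kinases Flt1 (VEGF receptor 1) and Kdr (VEGF receptor 2), and most of its signal in endothelium passes through Kdr. Placental growth factor (Pgf) and VEGF-B bind Flt1, which holds ligand tightly and signals weakly, and which is also made as a secreted form that sequesters ligand. VEGF-C and VEGF-D act on Flt4 (VEGF receptor 3) and are best known for the growth of lymphatic vessels. Neuropilins 1 and 2 are co-receptors that VEGF ligands share with the class 3 semaphorins. Vegfa is a classical target of the hypoxia-inducible factors, so poorly perfused tumour regions make much of it.

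All titles of the DMHCA group carry 1 unexplained code and all titles of the vehicle group another, so what the code stands for cannot be told apart from the treatment. Whether each tumour had a mouse of its own is not labelled, so the p-values refer to the scatter among these libraries, some of which may be technical. Libraries summed to between 36577451 and 42595799 expected counts. CPM are counts scaled to the library's total, which for the gene values was adjusted as given under processing. By the unadjusted totals a count of 3 corresponded to 0.0704 to 0.082 CPM, a floor for counting error only. Every family member lay above it in every library. Luminal epithelial markers, the check of the tissue label, were all detected and summed to 3152 to 3507 TPM (transcript abundance scaled by length and by library total) in DMHCA tumours and 3600 to 3644 TPM in vehicle tumours. Among 8 LXR targets, 5 log2 fold changes were positive (median 0.21). The cholesterol exporters Abcg1 and Abca1 averaged 36.8 and 118 CPM in DMHCA tumours, against 20.3 and 65.7 CPM in vehicle tumours. Their groups did not overlap, as held with higher DMHCA values for 3.02% of all genes tested. Abca1 was barely apart, at 100.2 CPM in DMHCA replicate 1 and 99.9 CPM in vehicle replicate 2. Neither gene passed the test over all genes (edgeR quasi-likelihood test, Benjamini-Hochberg adjusted p = 0.99 for both). Vehicle replicates 2 and 3 stood at opposite ends for stromal RNA. The 12 fibroblast markers summed to 1090 to 1547 TPM in DMHCA tumours, against 1889 TPM in vehicle replicate 2, 752 TPM in vehicle replicate 1 and 195 TPM in vehicle replicate 3. Results that change when a library is left out are given both ways.

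The windows of 250 bases before the RefSeq start sites of Vegfa, Kdr and Flt1 are shown here because these genes carry the main ligand result and the receptor results. Sequences are those of RefSeq on GRCm38.p6, written 5′ to 3′ on the strand of the gene. Capitals mark the GC box GGGCGG and the core letters of the hypoxia response element, ACGTG or GCGTG, on either strand. They lie at chr17:46032378-46032627 (minus strand), chr5:75978456-75978705 (minus strand) and chr5:147726012-147726261 (minus strand).
Vegfa: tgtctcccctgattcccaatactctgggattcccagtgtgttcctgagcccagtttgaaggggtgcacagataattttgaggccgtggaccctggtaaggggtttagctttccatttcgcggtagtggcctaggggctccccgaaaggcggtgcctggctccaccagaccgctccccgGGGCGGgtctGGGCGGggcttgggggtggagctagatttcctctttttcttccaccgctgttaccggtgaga
Kdr: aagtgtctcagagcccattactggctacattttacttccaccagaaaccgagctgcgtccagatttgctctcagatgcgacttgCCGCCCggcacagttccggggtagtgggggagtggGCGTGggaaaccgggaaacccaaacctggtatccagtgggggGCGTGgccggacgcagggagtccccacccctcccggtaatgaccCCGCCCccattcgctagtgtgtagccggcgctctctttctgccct
Flt1: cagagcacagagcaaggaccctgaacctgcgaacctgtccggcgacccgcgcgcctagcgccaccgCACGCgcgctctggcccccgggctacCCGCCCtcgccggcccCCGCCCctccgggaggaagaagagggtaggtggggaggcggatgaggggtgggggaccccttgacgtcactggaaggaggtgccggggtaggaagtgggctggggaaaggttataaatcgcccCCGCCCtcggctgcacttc

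The Vegfa window held 2 GC boxes and 0 hypoxia response cores, the Kdr window 2 and 2, and the Flt1 window 3 and 1. A GC box was found in 32.7% and either hypoxia response core in 38.6% of the 32851 windows of the same length in the table. A second RefSeq window of Vegfa, inside the gene, held 1 ACGTG, 1 GCGTG and 1 GC box. The direct repeat of AGGTCA with 4 bases between the copies, a form of element that LXR and its partner bind, was searched on both strands and matched 0 of the windows of the 10 genes and 0.0152% of all windows. These matches describe letters in a short window and do not locate binding. Only exact copies of the repeat were counted. A match so rare would hardly be met in the few family windows, so the 0 decides nothing about LXR binding.

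Vegfa, Pgf and Vegfb were far more abundant than the receptors, while Vegfd and Vegfc were at receptor levels. In TPM, which allows levels of different genes to be compared, Vegfa averaged 78.7 over the 6 libraries, Pgf 34.5 and Vegfb 20.5, while Nrp1 averaged 2.95, Vegfd 1.42, Kdr 1.34, Nrp2 1.34, Vegfc 1.08, Flt1 0.972 and Flt4 0.207. Vegfa exceeded Pgf in 6 of 6 libraries and Pgf exceeded Vegfb in 5 of 6. The lowest Vegfb library had 14.4 TPM and the highest Nrp1 library 4.09 TPM, so the 3 abundant ligands stood clear of the other 7 genes. Vegfd, Kdr, Nrp2, Vegfc and Flt1 had overlapping ranges and have no firm order. Flt4 was lowest in every library but vehicle replicate 3, where Vegfd was at 0.24 TPM. Its levels were 0.16 to 0.28 TPM in DMHCA tumours and 0.09 to 0.29 TPM in vehicle tumours.

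**Figure D1:**
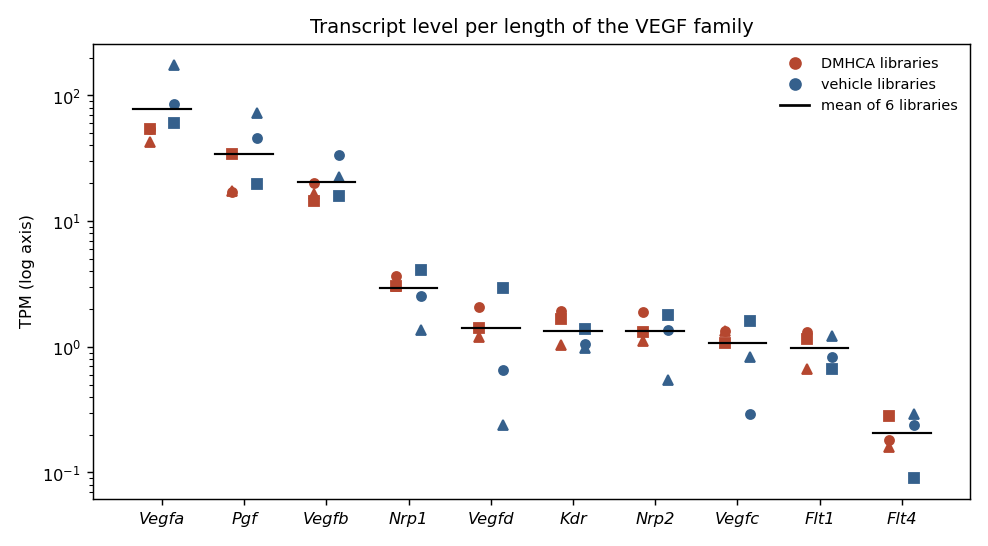
Level per transcript length (TPM, log axis) of each VEGF family gene in the 3 DMHCA libraries (red) and 3 vehicle libraries (blue), with the mean of all 6 as a line; circles, squares and triangles are replicates 1, 2 and 3. Vegfa, Pgf and Vegfb lie at or above 14.4 TPM in every library, and Nrp1 at or below 4.09 TPM.

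Vegfa (ENSMUSG00000023951, chromosome 17, 46016993 to 46032369, minus strand, GRCm38) was lower in all DMHCA tumours than in any vehicle tumour. It had 94.5, 74.6 and 62.5 CPM in DMHCA replicates 1 to 3, against 122, 106 and 251 CPM in vehicle replicates 1 to 3. The DMHCA libraries lay close together below 95 CPM, and the vehicle mean was drawn up by replicate 3, which had more than any other library. The means were 77.2 ± 16.1 CPM in DMHCA tumours and 160 ± 79.9 CPM in vehicle tumours (SD, n = 3 each). The log2 fold change of -1.05 ± 0.35 (SE; 95% interval -1.86 to -0.23) did not pass the test over all genes (edgeR quasi-likelihood test, unadjusted p = 0.0189, Benjamini-Hochberg adjusted p = 0.99). It was -0.56 with vehicle replicate 3 left out (edgeR unadjusted p = 0.0367). The edgeR unadjusted p was 0.0567 and 0.0627 without DMHCA replicates 2 and 3, and under 0.05 without any other single library. Vehicle replicate 3, highest in Vegfa, was the library with the least fibroblast RNA, and the part of this in the result was not tested. In whole tumours fewer cells of a type cannot be told apart from less RNA per cell. With all libraries in edgeR, Vegfa was the only family member with an unadjusted p under 0.05 and the only one whose groups did not overlap, so 1 of 10 genes met each rule. Over all genes tested 3.09% met the first rule (2.37% with lower values in DMHCA tumours) and 7.24% the second (4.22% lower, 3.02% higher), so 1 of 10 is a share near the background for the family as a whole. An adjusted p under 0.05 was reached by 0 of 10 members and by 0% of all genes in edgeR, and by 0 of 10 members and 0.023% of all genes in DESeq2.

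**Figure D2:**
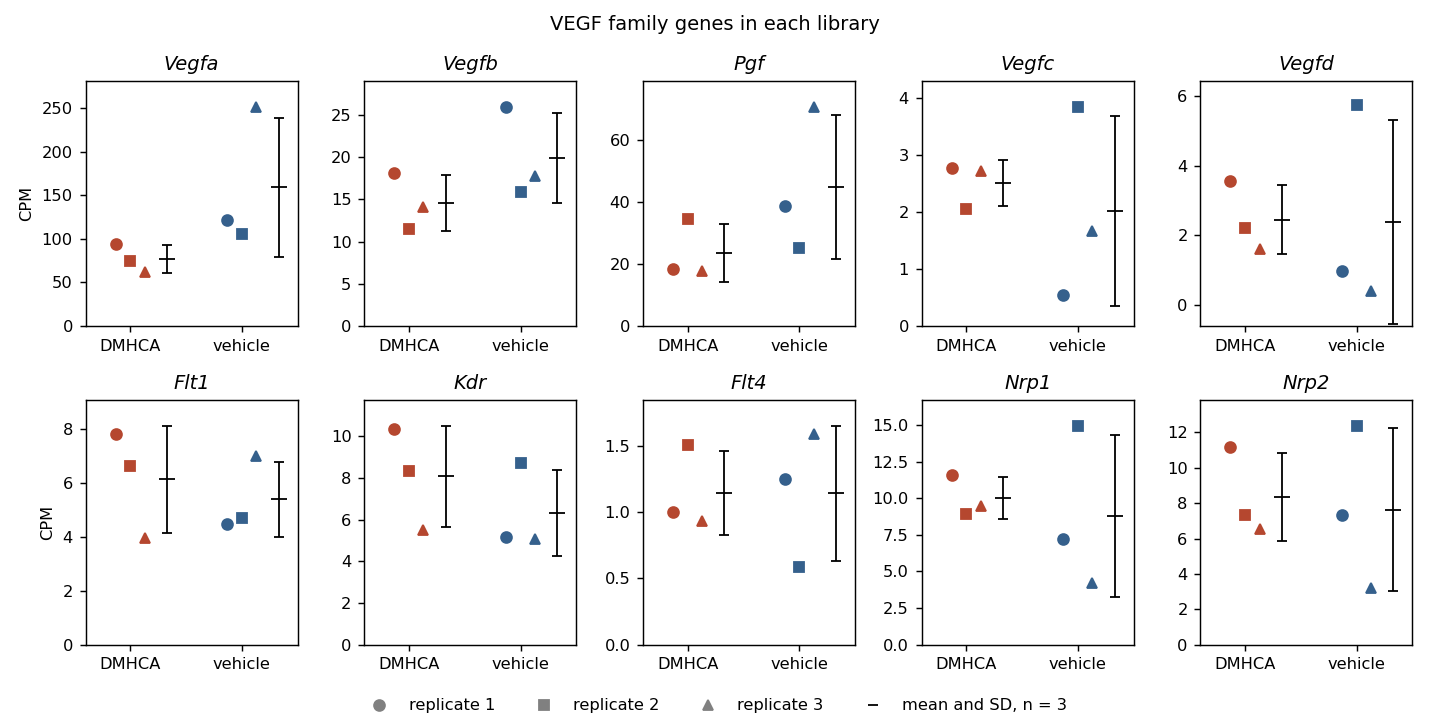
CPM of the 10 VEGF family genes in each DMHCA library (red, left) and vehicle library (blue, right), with the group mean and SD (n = 3) beside the points and a separate linear axis for each gene. The DMHCA points of Vegfa, up to 94.5 CPM, lie below all vehicle points, from 106 CPM up, and the groups overlap for the other 9 genes.

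Pgf (chromosome 12, 85166635 to 85177790, minus strand) had 18.5, 34.5 and 17.7 CPM in DMHCA replicates 1 to 3, against 38.8, 25.2 and 70.7 CPM in vehicle replicates 1 to 3. DMHCA replicate 2 lay above vehicle replicate 2, so the groups overlapped, and vehicle replicate 3 was again the highest library. On the log2 scale Pgf differed by -0.93 ± 0.43 (SE; 95% interval -1.97 to 0.10; edgeR unadjusted p = 0.0705, adjusted p = 0.99), and -0.44 without vehicle replicate 3. Vegfb (chromosome 19, 6982473 to 6987651, minus strand) had 18.1, 11.5 and 14.1 CPM in DMHCA tumours, against 25.9, 15.9 and 17.8 CPM in vehicle tumours. Its highest vehicle value came from replicate 1, and DMHCA replicate 1 reached above the vehicle replicates 2 and 3. By edgeR the log2 fold change was -0.45 ± 0.26 (SE; 95% interval -1.05 to 0.15), and -0.21 without vehicle replicate 1. The 3 abundant ligands thus all had lower means in DMHCA tumours, a direction shared by 50.7% of all genes tested.

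The ligands of Flt4 were scarce and varied widely between vehicle tumours. Vegfc (chromosome 8, 54077606 to 54187096, plus strand) had 2.76, 2.05 and 2.72 CPM in DMHCA replicates 1 to 3, against 0.547, 3.83 and 1.67 CPM in vehicle replicates 1 to 3. The DMHCA libraries lay between the highest and lowest vehicle libraries. Between the groups the log2 fold change was 0.32 ± 0.64 (SE; 95% interval -1.16 to 1.80), and it was -0.13 when vehicle replicate 1 was left out and 1.19 when vehicle replicate 2 was. Vegfd (chromosome X, 164373378 to 164402650, plus strand) had 3.55, 2.20 and 1.60 CPM in DMHCA tumours, against 0.980, 5.75 and 0.398 CPM in vehicle tumours. Its highest library held 14.5 times the CPM of its lowest, the widest range of the 10 genes, and both were vehicle libraries, at 216 and 16 expected counts. Its log2 fold change of 0.05 ± 0.91 (SE; 95% interval -2.11 to 2.20) became 1.81 with vehicle replicate 2 left out (edgeR unadjusted p = 0.0188, adjusted p = 0.31) and -0.44 with vehicle replicate 3 left out. These intervals allow changes of several-fold either way. Without vehicle replicate 2, an unadjusted p under 0.05 in edgeR was found for 2442 of 17963 genes.

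Vegfa kept the largest part of the ligand transcripts in both groups. Of the summed TPM of the 5 ligands Vegfa made up 57.0, 51.6 and 53.8% in DMHCA tumours, against 51.5, 60.2 and 64.5% in vehicle tumours. The mean shares of 54.2 ± 2.697% in DMHCA tumours and 58.7 ± 6.66% in vehicle tumours differed by less than the spread (two-sided exact permutation p = 0.4, where 3 libraries against 3 cannot give less than 0.1). Pgf took 24.2 ± 7.31% in DMHCA tumours and 24.7 ± 4.47% in vehicle tumours, and Vegfb took 18.6 ± 4.26% in DMHCA tumours and 14.8 ± 6.08% in vehicle tumours (SD, n = 3 each; exact permutation p = 0.9 for Pgf and 0.5 for Vegfb). Vegfc and Vegfd took small shares, the highest being 2.93% for Vegfd in vehicle replicate 2.

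The receptor genes had overlapping groups. Kdr (chromosome 5, 75932827 to 75978458, minus strand) had 10.4, 8.35 and 5.51 CPM in DMHCA replicates 1 to 3, against 5.15, 8.71 and 5.07 CPM in vehicle replicates 1 to 3. High and low libraries occurred in both groups. Fitted over all libraries the log2 fold change was 0.35 ± 0.36 (SE; 95% interval -0.47 to 1.18; edgeR adjusted p = 0.99), and it ran from 0.14 without DMHCA replicate 1 to 0.66 without vehicle replicate 2. Flt1 (chromosome 5, 147561604 to 147726011, minus strand) had 7.83, 6.61 and 3.94 CPM in DMHCA tumours, against 4.49, 4.69 and 6.99 CPM in vehicle tumours. Here vehicle replicate 3, low in Kdr, was the highest vehicle library. With all libraries the log2 fold change was 0.19 ± 0.36 (SE; 95% interval -0.65 to 1.02), against -0.027 without DMHCA replicate 1 and -0.046 by limma-voom. Flt4 (chromosome 11, 49609263 to 49652739, plus strand) rested on 37, 62 and 39 expected counts in DMHCA tumours and 55, 22 and 64 in vehicle tumours. Its log2 fold change was 0.01 ± 0.49 (SE; 95% interval -1.13 to 1.14) by edgeR, -0.14 by limma-voom, and -0.31 or 0.31 when vehicle replicate 2 or 3 was left out.

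The neuropilins moved together from library to library. Nrp1 (chromosome 8, 128358604 to 128503363, plus strand) had 11.6, 8.96 and 9.45 CPM in DMHCA replicates 1 to 3, against 7.25, 14.96 and 4.18 CPM in vehicle replicates 1 to 3. Nrp2 (chromosome 1, 62703285 to 62818695, plus strand) had 11.2, 7.35 and 6.54 CPM in DMHCA tumours, against 7.34, 12.4 and 3.18 CPM in vehicle tumours. Vehicle replicate 2 was the highest library and vehicle replicate 3 the lowest for both genes. The log2 fold changes were 0.19 ± 0.44 for Nrp1 (SE; 95% interval -0.84 to 1.21) and 0.13 ± 0.48 for Nrp2 (-0.99 to 1.25), and without vehicle replicate 3 they were -0.14 and -0.23. Among the 45 pairs of family genes, this pair had the smallest root mean square difference between profiles, 0.19 on the log2 scale, where a profile is a gene's log2 CPM in the 6 libraries minus its mean. The fibroblast and macrophage marker lists were highest and lowest in the same vehicle libraries, with 1889 and 195 TPM for fibroblasts and 1038 and 276 TPM for macrophages in vehicle replicates 2 and 3, against 692 to 777 TPM for macrophages in DMHCA tumours. Their part in the neuropilin values was not tested.

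**Figure D3:**
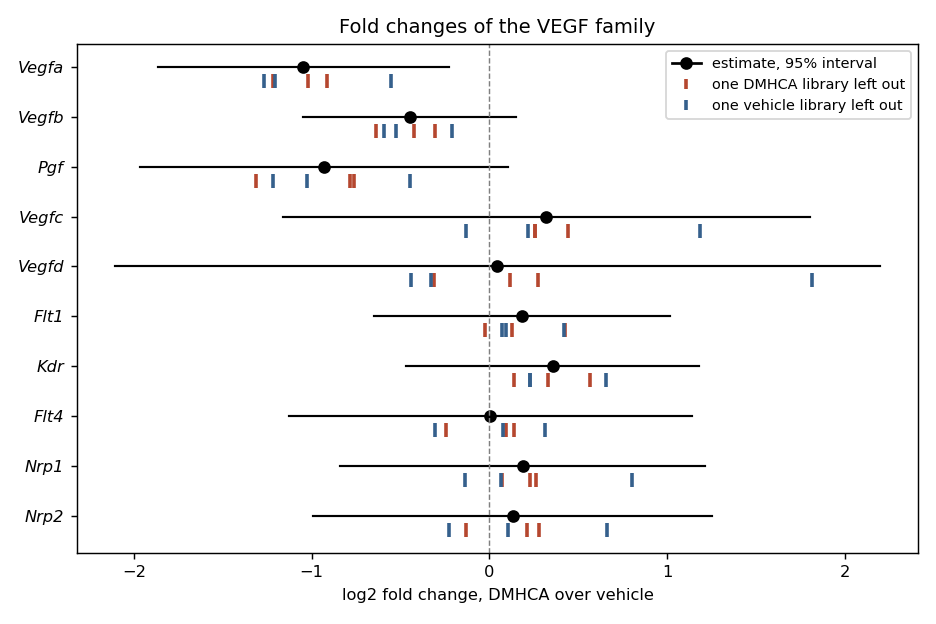
Log2 fold change of each VEGF family gene, DMHCA over vehicle, with its 95% interval (black, edgeR) and the estimates with 1 DMHCA library (red ticks) or 1 vehicle library (blue ticks) left out. The interval lies below 0 for Vegfa (-1.86 to -0.23) and spans 0 for the other 9 genes, and the ticks of Vegfd run from -0.44 to 1.81.

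Set against other endothelial RNA, Kdr had the narrowest range of the receptors over the 6 libraries. The 20 blood endothelial markers outside the family, among them Pecam1 and Cdh5, were all detected and summed to 57.2 to 89.3 TPM in DMHCA tumours and 39.4 to 79.4 TPM in vehicle tumours. Log2 TPM of Kdr minus the mean log2(TPM + 0.1) of these markers was -0.62, -0.67 and -0.99 in DMHCA replicates 1 to 3 and -0.89, -0.86 and -0.55 in vehicle replicates 1 to 3. The group difference was 0.01 (two-sided exact permutation p = 1). It was -0.26 when the median of the markers was used and 0.13 with a pseudocount of 1, so no direction can be given. The same measure for Flt1 was -1.18, -1.19 and -1.63 in DMHCA tumours and -1.23, -1.93 and -0.22 in vehicle tumours. Flt1 in vehicle replicate 3 was thus at nearly the level of the endothelial markers, whose summed TPM was lowest in that library. The difference of the groups was -0.21 for Flt1 (exact permutation p = 0.9), and 0.25 without vehicle replicate 3. For Flt4, Nrp1 and Nrp2 the differences were -0.28, 0.02 and -0.03 (exact permutation p = 0.8, 1 and 1).

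**Figure D4:**
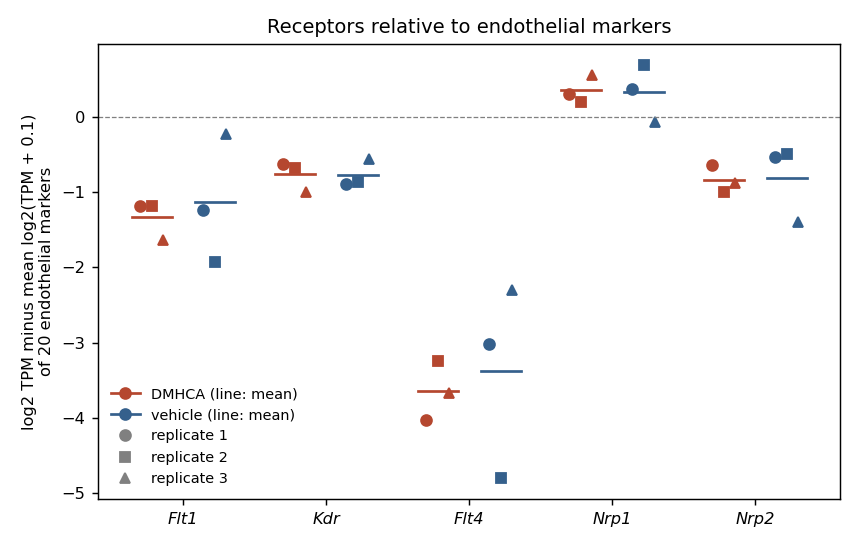
Log2 TPM of each receptor gene minus the mean log2(TPM + 0.1) of 20 blood endothelial markers in the same library, for DMHCA libraries (red, left) and vehicle libraries (blue, right), with group means as lines. Kdr stays between -0.99 and -0.55, while Flt1 in vehicle replicates runs from -1.93 to -0.22.

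Within the 3 receptor kinases, Kdr made up 56.5, 53.5 and 55.7% of the summed TPM in DMHCA tumours, against 49.5, 65.0 and 39.1% in vehicle tumours. Flt1 made up 38.2, 37.4 and 35.7% in DMHCA tumours, against 39.2, 30.8 and 49.2% in vehicle tumours. Flt1 exceeded Kdr in vehicle replicate 3 alone. The mean share of Flt1 was 37.1 ± 1.31% in DMHCA tumours and 39.7 ± 9.19% in vehicle tumours (SD, n = 3 each; exact permutation p = 0.7), with the DMHCA libraries all inside the vehicle range.

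The isoform mix could be followed through the transcript length that RSEM assigns to a gene, a mean over its isoforms weighted by their estimated abundance. For Kdr, Flt4 and Vegfc this length was 5924, 6255 and 2449 bases in every library, the lengths of coding isoforms in GENCODE M21 with 1345, 1363 and 415 codons. The shorter isoforms of these 3 genes were thus given no detectable share in any library. Vegfd was at 2049 bases, the length of its coding isoform, in all libraries but DMHCA replicate 3, where 1697 bases correspond to a share of 31.1% for the retained-intron transcript, on 67 expected counts. Flt1 has a full-length isoform of 6895 bases and 30 exons (1333 codons) and a shorter coding isoform of 6292 bases and 13 exons (688 codons), which stops before the end of the receptor. Its weighted length was 6596, 6650 and 6531 bases in DMHCA tumours, against 6487, 6632 and 6467 bases in vehicle tumours. These lengths require at least 50.5, 59.4 and 39.7% full-length isoform in DMHCA tumours and at least 32.3, 56.4 and 29.0% in vehicle tumours. They lie between those of the 2 coding isoforms in every library. The group difference of 64.0 bases was within the spread (means 6593 ± 59.7 bases in DMHCA tumours and 6529 ± 90.1 bases in vehicle tumours; exact permutation p = 0.3).

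Vegfa, with 10 isoforms in the tables and 5 of them coding, had weighted lengths of 2105, 1834 and 1843 bases in DMHCA tumours, against 1946, 1860 and 1827 bases in vehicle tumours. DMHCA replicate 1 stood above the others, and the groups overlapped (difference 49.3 bases, exact permutation p = 0.8, and -39.4 bases without that library). For Vegfb, Pgf, Nrp1 and Nrp2 the differences were 22.4, 43.1, 0.123 and -77.8 bases (exact permutation p = 0.3, 0.5, 1 and 0.3).

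Library profiles sorted the family into genes high in vehicle replicate 3 and genes low in it. Relative to its own mean over the 6 libraries, vehicle replicate 3 was at 1.24 for Vegfa, 1.22 for Pgf, 0.53 for Flt4 and 0.32 for Flt1 on the log2 scale, and at -2.02 for Vegfd, -1.19 for Nrp2, -1.06 for Nrp1 and -0.44 for Kdr, with Vegfb (0.10) and Vegfc (-0.23) in between. Vehicle replicate 2 was at 1.68 for Vegfd, 0.95 for Vegfc, 0.77 for Nrp1 and 0.75 for Nrp2, and at -0.84 for Flt4. The same libraries were at -1.91 and 1.31 for the mean of the fibroblast list and at -0.70 and 0.43 for the blood endothelial list. No family gene was as far from its mean in a DMHCA library as Vegfd was in these vehicle libraries, the DMHCA extremes being 0.99 for Vegfd and -0.78 for Pgf.

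**Figure D5:**
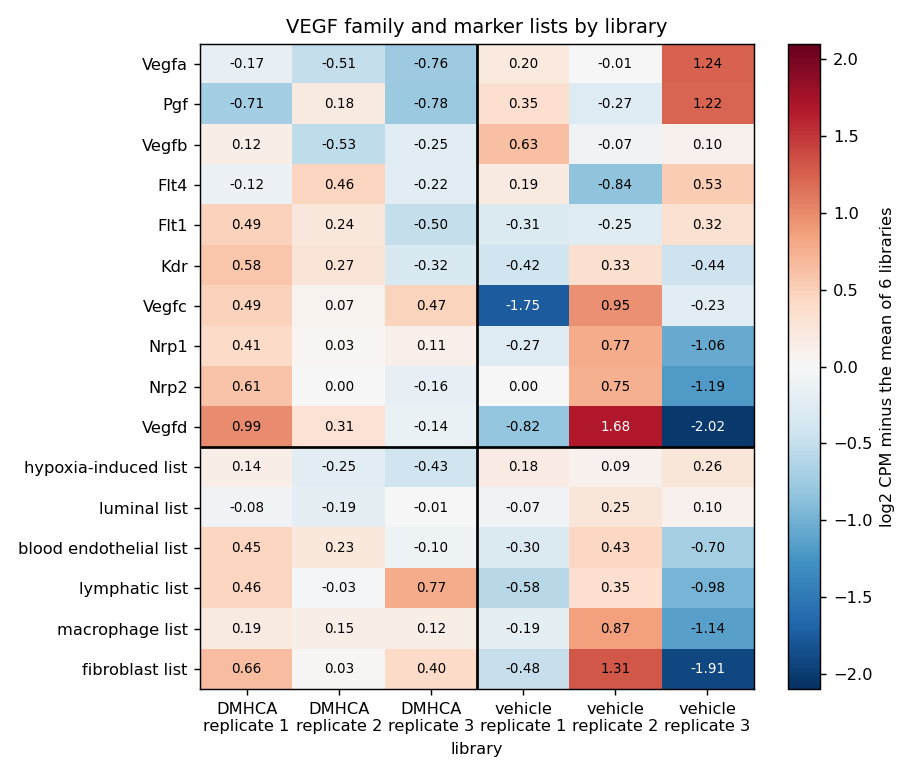
Log2 CPM of each VEGF family gene, and the mean over the genes of 6 marker lists, as deviations from the mean of the 6 libraries (colour and printed value), with DMHCA libraries left and vehicle libraries right. Vehicle replicate 3 is at 1.24 for Vegfa and -2.02 for Vegfd, and the fibroblast list is at -1.91 there.

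By profile, the 5 genes closest to Vegfa among 13246 with a mean log2 CPM of at least 1 were Bcl6, a transcriptional repressor, Clic6, a chloride channel family member, Foxi1, a forkhead transcription factor, Tmem117 and D330050G23Rik, with root mean square differences of 0.15, 0.16, 0.16, 0.18 and 0.19. Bcl6 had 42.8, 34.1 and 24.4 CPM in DMHCA tumours, against 61.3, 42.1 and 94.9 CPM in vehicle tumours. Like Vegfa it was highest in vehicle replicate 3 and lowest in DMHCA replicate 3, a likeness that follows from its choice by profile. The 5 genes closest to Kdr were Mmrn2, Grasp, Gm20458, Esam and Tie1, at 0.12 to 0.15. Mmrn2 and Esam are endothelial markers of the list and Tie1 is an endothelial receptor kinase. Mmrn2 had 3.77, 2.88 and 2.05 CPM in DMHCA tumours, against 2.30, 3.49 and 1.84 CPM in vehicle tumours, so both groups spanned about the same range.

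The hypoxia-induced genes outside the family had mostly lower means in DMHCA tumours, with 17 of 19 log2 fold changes below 0. That direction was shared by 50.7% of all genes tested. The median of the list was -0.25, beside -0.005 over all genes tested. The summed TPM of the list overlapped, at 2669, 2521 and 1919 in DMHCA tumours and 2975, 2498 and 3152 in vehicle tumours. Of the hypoxia-induced genes 0 passed the adjusted test and 1 of 19 had an unadjusted p under 0.05, beside 3.09% of all genes. Ndrg1, a hypoxia-induced gene, had 91.1, 70.3 and 101 CPM in DMHCA tumours, against 110, 261 and 170 CPM in vehicle tumours, with no overlap (log2 fold change -1.04 ± 0.31; edgeR unadjusted p = 0.0111, adjusted p = 0.99). Its highest library was vehicle replicate 2, where Vegfa had its lowest vehicle value. Ldha, which makes lactate, was at -0.47 ± 0.21 with overlapping groups. The median difference between the Vegfa profile and those of the 19 hypoxia-induced genes was 0.58, against 0.69 for all genes searched. For the 14 luminal epithelial markers the median was 0.65. The closest hypoxia-induced gene, Car9, was at 0.40, and nearer to Vegfa were Pgf at 0.38 and the luminal marker Elf3 at 0.34. The 8 tested genes of HIF subunits and oxygen sensing were split 4 and 4 with a median of -0.04. Arnt, the common HIF partner, was at -0.20 ± 0.14, with all DMHCA values below the vehicle values. Its groups were barely apart, at 57.0 CPM in DMHCA replicate 2 and 57.2 CPM in vehicle replicate 1. Arnt2 was at 0.88 ± 0.77.

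Genes that act on or below the ligands and receptors gave no call in the adjusted test. Signalling genes below the receptors had 10 positive and 13 negative log2 fold changes with a median of -0.17, and 2 of 23 had an unadjusted p under 0.05 (3.09% of all genes, 2.37% lower). Src, a kinase that relays receptor signals in many cell types, had 63.4, 80.8 and 62.3 CPM in DMHCA tumours, against 125, 91.4 and 103 CPM in vehicle tumours. The groups did not overlap (log2 fold change -0.63 ± 0.18; edgeR unadjusted p = 0.00851, adjusted p = 0.99), and the same held for the adaptor gene Shb at -0.46 ± 0.17. Proteases and partners that process VEGF ligands were split 6 and 6 (median 0.04), with Adamts3, which cleaves VEGF-C, at -0.59 ± 0.35 and Furin, a proprotein convertase, at -0.32 ± 0.26. Angiopoietins and Tie receptors had 6 of 8 positive values (median 0.10), with Angpt1 at 0.42 ± 0.59 and Angpt2, a Tek ligand made by activated endothelium, at -0.30 ± 0.49. Of 12 class 3 semaphorins and plexins 7 were positive (median 0.02), with Sema3a, a neuropilin ligand, at 1.15 ± 0.54 and Sema3d at 1.28 ± 0.78, both with overlapping groups. Inhibitors of angiogenesis had 6 positive and 4 negative values (median 0.10), with Cxcl10 at -1.03 ± 0.59 and Thbs2 at 0.83 ± 0.67.

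Tip cell and VEGF response genes had 6 positive and 12 negative values with a median of -0.13. Of these 2 of 18 had an unadjusted p under 0.05, against the same 3.09% of all genes. The list summed to 231 to 284 TPM in DMHCA tumours and 269 to 351 TPM in vehicle tumours. The 20 blood endothelial markers summed to less, 57.2 to 89.3 and 39.4 to 79.4 TPM. Sums over different genes do not show where the RNA came from. Which cells made the RNA of the tip cell list was not tested. Notch1, which restrains sprouting in endothelium and is also expressed in epithelium, had 70.1, 104 and 84.8 CPM in DMHCA tumours, against 118, 113 and 114 CPM in vehicle tumours. The groups did not overlap (log2 fold change -0.41 ± 0.17). Hey1, a Notch target, was at -0.55 ± 0.22 with overlapping groups, on 224 to 249 CPM in DMHCA tumours and 240 to 404 CPM in vehicle tumours. Blood endothelial markers had 19 of 20 positive values (median 0.32) and 0 with an unadjusted p under 0.05. Over all genes tested 49.3% were positive. Ushbp1 was at 0.56 ± 0.34 and Eng at 0.52 ± 0.40. As a log2 deviation from the 6 libraries, the mean of this list was 0.45, 0.23 and -0.10 in DMHCA tumours. In vehicle tumours it was -0.30, 0.43 and -0.70, so the groups overlapped. Lymphatic markers were positive in 6 of 6 tested genes (median 0.43), and 1 of 6 had an unadjusted p under 0.05. The list mean again overlapped, at 0.46, -0.03 and 0.77 in DMHCA tumours and -0.58, 0.35 and -0.98 in vehicle tumours. Reln was at 1.57 ± 0.62 on 0.537 to 1.58 CPM in DMHCA tumours and 0.160 to 0.398 CPM in vehicle tumours, without overlap. Mmrn1 was at 1.16 ± 0.62. Pericyte and smooth muscle markers had 6 of 10 positive (median 0.16), and 1 of 10 had an unadjusted p under 0.05. Notch3, a receptor gene of this list, had 44.4, 41.3 and 46.0 CPM in DMHCA tumours, against 80.0, 50.7 and 96.5 CPM in vehicle tumours. It ran against its list, whose mean was at 0.46 in vehicle replicate 2 and -0.49 in vehicle replicate 3. Which cells made the Notch3 RNA was not tested. The groups did not overlap for Notch3 (log2 fold change -0.79 ± 0.23), while Mcam was at 0.20 ± 0.15.

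The remaining marker lists describe which other cells the tumour pieces held. Macrophage markers were positive in 9 of 13 genes (median 0.04; Cd68 at 0.21 ± 0.37) and fibroblast markers in 9 of 12 (median 0.21; Postn at 0.59 ± 0.76, Pdgfra at 0.22 ± 0.40). Luminal markers were positive in 3 of 14 (median -0.22, with Elf3 at -0.62 ± 0.19 without overlap and Cldn3 at -0.44 ± 0.22). Basal markers were positive in 9 of 10 (median 1.04, with Myh11 at 2.76 ± 1.07 and Acta2 at 1.91 ± 0.77). An edgeR unadjusted p under 0.05 was found for 1 of 14 luminal and 3 of 10 basal markers, beside 3.09% of all genes. Those 3 basal markers were all higher in DMHCA tumours. Basal markers summed to 148, 137 and 342 TPM in DMHCA tumours, against 155, 140 and 47.5 TPM in vehicle tumours, and DMHCA replicate 3 stood apart. Adipocyte markers were positive in 2 of 9 (median -0.36, with Pnpla2 at -0.26 ± 0.15 and Lipe at -0.47 ± 0.39). Skeletal muscle markers, of a tissue that also makes Vegfa and Vegfb, were positive in 10 of 10, beside 49.3% of all genes. Their median was 0.25, with Myh4 at 0.50 ± 0.25 and Myh1 at 0.55 ± 0.32. They summed to 716, 470 and 505 TPM in DMHCA tumours, against 527, 476 and 426 TPM in vehicle tumours, with overlap. None of these genes passed the adjusted test, and the part of these cell types in the family values was not tested.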

How the data were processed

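RNA of 6 mammary tumours (3 DMHCA, 3 vehicle) was measured by RNA-seq. The deposited tables hold RSEM expected counts, TPM, FPKM and weighted transcript lengths per gene, per the file headers. Named in the submitters' processing notes, with no role, are RSEM 1.3.1, STAR 2.7.9a, cutadapt 3.5, FastQC 0.11.9, R 4.1, DESeq2 1.36.0 and the build GRCm38. Strand setting and annotation release were not given in the sources used here. Whether reads of overlapping and antisense genes were told apart is thus not known. Deposited TPM and FPKM, computed by the authors' RSEM run, were used as given, FPKM in an alternative only.

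The authors' expected counts, of which 10.1 to 10.5% per library were not whole (0 of the family's), were rounded and tested with edgeR 4.0.16 in R 4.3.3 (TMM, filterByExpr with minimum count 10 and minimum total 15, robust quasi-likelihood F test of group, no covariate), with Benjamini-Hochberg adjustment over all 17396 genes. The test was run on simulated counts with the same scatter setting for every gene, so that run does not cover the uneven scatter of these libraries. Standard errors are the log2 fold change over the square root of F. CPM are scaled to the TMM-adjusted total, log2 CPM with a prior count of 2, and SDs are over 3 libraries. TPM shares, marker ratios and lengths were compared by two-sided exact permutation tests. Alternatives were other normalizations and filters, a replicate block, DESeq2 1.42.0, limma 3.58.1 (voom with quality weights, and trend on log2(TPM + 1)) and each library left out. Positions and isoforms are those of GENCODE M21.

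The members and the 18 lists (229 genes, 222 tested) were chosen with earlier results of these data known. Named are all members, per list the 2 genes of lowest unadjusted p, any gene past the adjusted threshold, and the 5 profiles nearest to Vegfa and Kdr. Genes of the LXR list are given in the opening only, and 1 gene the rule named is not reported here. A symbol that names several rows (Aldoa) or none was left out.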

Additional observations from a re-analysis of the deposited data

How the results depend on the processing

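The count of genes called was 0 in edgeR and in every alternative except DESeq2, which called 4 of 17396; at an unadjusted p under 0.05 edgeR had 538, DESeq2 666, limma-voom 1210 and edgeR 2442 without vehicle replicate 2. The 538 were 125 higher and 413 lower in DMHCA tumours. Upper-quartile factors gave 182 higher against 331 lower genes. These numbers were 1188 and 1254 without vehicle replicate 2, and the excess turned round, to 238 higher and 137 lower, with limma on log2(TPM + 1). Pgf also had an unadjusted p under 0.05 by limma-voom (-1.08), by DESeq2 (-0.93) and without DMHCA replicate 2 (-1.31) or vehicle replicate 2 (-1.22). Without vehicle replicate 2 the same held for Vegfd (1.81) and Nrp1 (0.80), in a fit where 2442 of 17963 genes met that rule. Family members called numbered 0 in all alternatives, with the smallest adjusted p 0.636 (limma-voom) among those that keep all libraries. Vegfa kept its direction in all alternatives, between -1.10 (limma-voom) and -0.94 (log2(TPM + 1)) with all libraries and between -1.27 (without vehicle replicate 2) and -0.56 (without vehicle replicate 3) with 1 left out. Pgf ran from -1.31 to -0.44 and Vegfb from -0.64 to -0.21. Samples with the same replicate number had correlations of deviations of 0.17, 0.04 and 0.06. Those with different numbers ran from -0.11 to 0.055. No label says what a shared number means, so the numbers were not taken as pairs. With the replicate block the log2 fold change was -0.95 for Vegfa (unadjusted p = 0.0441) and 0.86 for Vegfd, and 0 genes were called.

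Several directions turned, and the cause was not tested. By limma-voom Flt1 was at -0.046 and Flt4 at -0.14. With 1 library left out, log2 fold changes ran from -0.13 to 1.19 for Vegfc, -0.44 to 1.81 for Vegfd, -0.027 to 0.42 for Flt1, -0.31 to 0.31 for Flt4, -0.14 to 0.80 for Nrp1 and -0.23 to 0.66 for Nrp2. Per endothelial marker, they ran from -0.61 to 0.25 for Flt1, -0.063 to 0.12 for Kdr, -0.99 to 0.26 for Flt4, -0.18 to 0.20 for Nrp1 and -0.32 to 0.13 for Nrp2. With the median of the markers, Kdr was at -0.26 and Nrp1 at -0.25, and with a pseudocount of 1 Nrp2 was at 0.10. Weighted lengths ran from -39.4 to 95.9 bases for Vegfa and -2.87 to 3.56 for Nrp1. Shares of TPM ran from -4.55 to 2.54 percentage points for Pgf, -7.06 to 2.11 for Flt1 and -2.01 to 10.9 for Kdr. At 16 to 216 expected counts in a library, Vegfc, Vegfd and Flt4 are the members that depth limits most.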
